A study of Danio rerio with 6 samples.

Results

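Genes for 4 acetylcholine receptor proteins and for acetylcholinesterase, the enzyme that ends the acetylcholine signal, were examined in the brains of adult zebrafish that had been exposed to lead as embryos. The genes were chrna3, chrna5, chrm2a, chrm5a and ache. They were chosen by name, with earlier results of these data known. Every array target annotated with 1 of these names, or with an older name of the gene, was taken. This gave 6 of the 38489 targets on the array: 1 each for chrna3, chrna5, chrm2a, chrm5a and ache, and 1 under the old symbol chrm5, which chrm5a shares with its paralogue chrm5b. All 6 were measured on all arrays, with 3 probes each, and no filter on low values was applied.

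The lead-exposed group held 3 male fish of the AB strain that had been treated as embryos with lead acetate at 100 ppb; treatment began less than 2 hours after fertilization and ended at 72 hours. The control group held 3 male AB fish kept at 0 ppb over those hours. Both groups then grew in water without lead to 12 months of age, when brains were dissected, with 1 brain for each 1-colour array. Tank sharing within a group is not stated, and the tests weigh differences against the variation among these individual fish only. Female brains of the same study were not analysed here.

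Acetylcholine acts in the brain through 2 receptor families. Nicotinic receptors are ion channels built from several subunits, among them those encoded by chrna3 and chrna5, and open within milliseconds of binding. Muscarinic receptors, such as those encoded by chrm2a and chrm5a, signal more slowly through G proteins. Acetylcholinesterase splits the transmitter in the synaptic cleft and thereby sets how long either family is stimulated.

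Values are log2 of the intensity that the authors deposited for each target after RMA, and differences are lead-exposed minus control. Intensities of different targets are not set against each other, because probes differ in how strongly they bind. Random-sequence probes, which match no gene, gave a limit for each array at their 95th percentile, which ranged between 10.41 and 10.91 (log2). Between 50.6% and 58.3% of all targets lay above it on an array. The arrays resembled each other as closely between groups (Pearson r across targets 0.970 to 0.987) as within the lead-exposed group (0.969 to 0.982) and the control group (0.972 to 0.986). A number in the scanner image names ran from 1 to 3 for control arrays and from 4 to 6 for lead-exposed arrays. What it stands for is not stated. If it marks a position or order of scanning, that and group cannot be told apart.

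Signal was higher in lead-exposed brains for chrna5, chrm2a and chrm5a, with groups that did not overlap. It overlapped between the groups for chrna3, for the chrm5 target and for ache. None of the 6 targets passed limma's test at an adjusted p of 0.05, where the background was 0 of 38489 targets (0%), and the smallest adjusted p of any target was 0.568. At unadjusted p under 0.05, 3 of the 6 passed, all higher, against 7.19% of all targets and 4.19% in the higher direction. The same 3 of the 6 did not overlap between groups, against 13.1% of all targets and 7.01% in the higher direction. Of these 3, chrm5a exceeded the random-probe limit on 0 arrays. Among all targets above the limit on 0 arrays, 19.1% did not overlap, 10% in the higher direction. The median difference over the 6 targets was 0.22, beside -0.0039 over all targets. As the genes were chosen with earlier results of these data known, these counts are descriptive, and enrichment was not tested. The same holds for the counts of single probes below. In whole brain, a change in the number of cells of a type and a change in RNA per cell cannot be told apart.

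**Figure D1:**
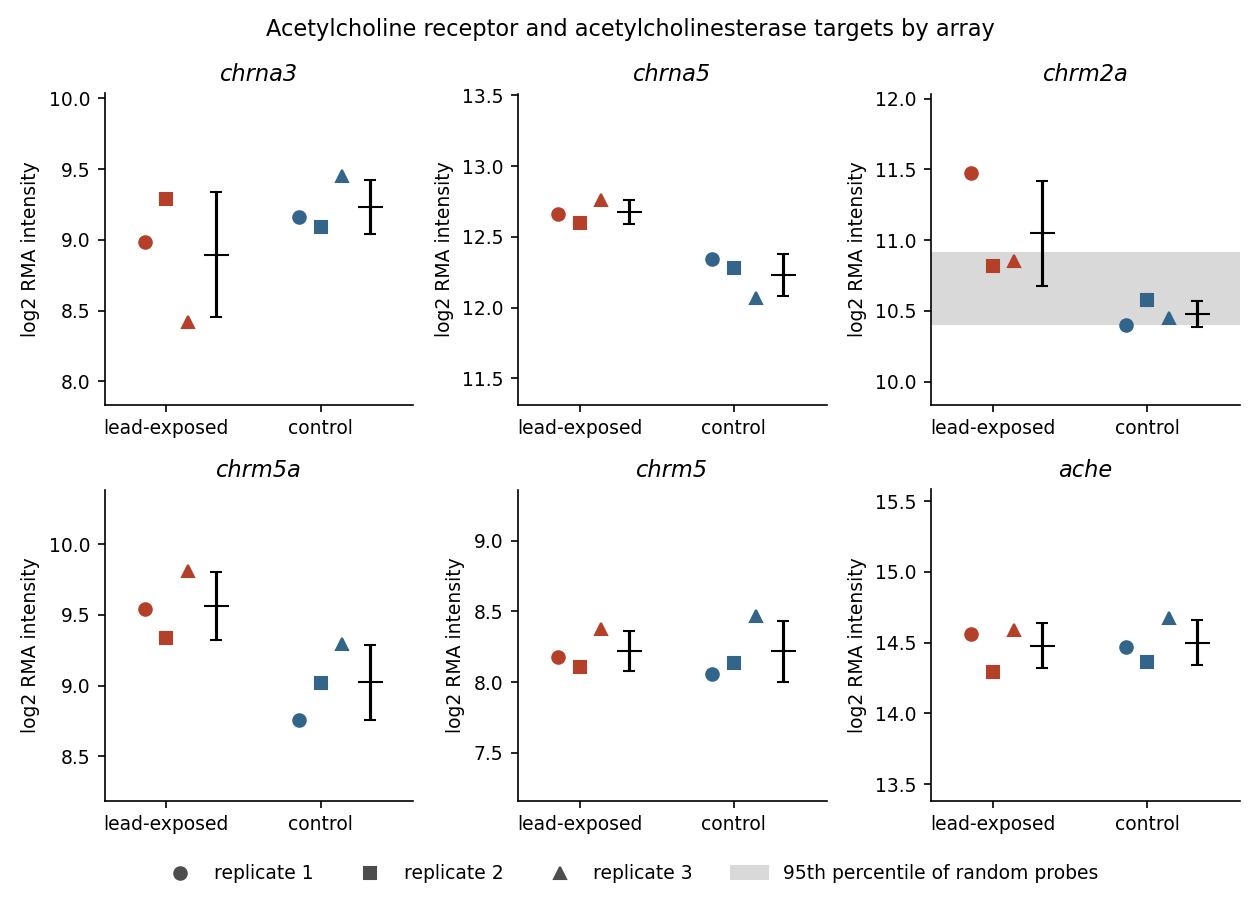
Log2 RMA intensity (vertical axes, each spanning the same number of log2 units) of the 6 targets on the 3 lead-exposed and 3 control arrays, with the group mean and SD as black bars. The grey band spans the random-probe limits of the 6 arrays, 10.41 to 10.91, and lies inside the chrm2a panel alone. The lead-exposed points lie above all control points for chrna5, chrm2a and chrm5a, whereas the groups overlap for chrna3, chrm5 and ache.

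The chrna5 gene encodes an accessory nicotinic subunit, which joins other subunits in a channel and, in mammals, alters its response to agonist. Its target (OTTDART00000021963) lies on chromosome 18, from 27507423 to 27529972 in the array annotation, which gives the span of a transcript and not the exon of a probe. The sources used here do not name the assembly of this and the other OTTDART positions. Its log2 intensity was 12.66, 12.60 and 12.76 in lead-exposed brains 1, 2 and 3, against 12.35, 12.28 and 12.06 in control brains 1, 2 and 3. The lowest lead-exposed value thus stood above the highest control value, and all 6 arrays were above the random-probe limit. The means were 12.67 ± 0.08 in lead-exposed brains and 12.23 ± 0.15 in control brains (SD, n = 3 each). The difference of 0.44 (SE 0.13, 95% interval 0.13 to 0.76) is a 1.36-fold higher signal. It failed limma's test after correction over all targets (unadjusted p = 0.0126, adjusted p = 0.607), and the exact permutation p was 0.1, the smallest that 3 arrays against 3 can give. Among the 18284 targets above the random-probe limit on all 6 arrays, 4.37% were higher in lead-exposed brains without overlap, and 1.84% were higher at unadjusted p under 0.05.

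Each target has 3 probes, 18 in all, and 6 of the 18 had groups that did not overlap, against 17.3% of the 113549 single target probes. Of these, 5 were higher in lead-exposed brains (background 9.1%) and 1 was lower (background 8.24%). At unadjusted p under 0.05 there were 5 of 18, against 11% of all target probes, and 4 of them were higher, against 5.99%. None of the 18 passed at an adjusted p of 0.05 by limma, which 1 of all target probes did (0.000881%). Only 8 of the 18 were above the random-probe limit on all 6 arrays. Among the random-sequence probes, which match no gene, 30.6% had groups that did not overlap. By limma 23.2% of them had an unadjusted p under 0.05, so these counts are not clearly above those of dim probes.

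Of the chrna5 probes, only the second separated the groups. It read 12.66, 12.84 and 12.76 in lead-exposed brains, against 12.37, 12.28 and 12.06 in control brains, a difference of 0.52 (SE 0.15, limma adjusted p over all single probes 0.310). In lead-exposed brains 1 and 3 and control brains 2 and 3 this reading equals the value of the target, so probe and target are not separate evidence. Probes 1 and 3 were also higher on average, by 0.16 (SE 0.24) and 0.42 (SE 0.23), with overlapping groups. All 3 probes were above the random-probe limit on all 6 arrays. The difference of the target stayed between 0.36 and 0.50 when any array was left out, with unadjusted p under 0.05 in 6 of 6 such fits.

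The chrna3 gene encodes an alpha subunit that carries part of the agonist binding site; in mammals it is the typical subunit of autonomic ganglia and is abundant in the medial habenula. Its target (ENSDART00000002296) spans 44498886 to 44506451 on chromosome 18 of the Zv7 assembly. Its log2 intensity was 8.98, 9.29 and 8.42 in lead-exposed brains, against 9.16, 9.09 and 9.45 in control brains. The groups overlapped, lead-exposed brain 3 was the lowest of all, and no array exceeded the random-probe limit. The difference was -0.34 (SE 0.24, 95% interval -0.91 to 0.23; limma adjusted p = 0.805), and since neither group was above that limit no fold is given. Without lead-exposed brain 3 it was -0.10.

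The 3 chrna3 probes disagreed in direction. Probe 3 was lower in lead-exposed brains without overlap (8.69, 8.16 and 8.12, against 8.94, 8.82 and 9.49 in control brains), while probe 2 was higher without overlap (9.80, 9.80 and 9.93, against 9.68, 9.61 and 9.63 in control brains). Their differences were -0.76 (SE 0.25) and 0.21 (SE 0.13), with limma adjusted p of 0.354 and 0.620 over all single probes. Probe 1 differed by 0.20 (SE 0.43) with overlapping groups. Of the 27114 random-sequence probes themselves, 30.6% had groups that did not overlap and 23.2% had an unadjusted p under 0.05, so a separated dim probe was common on these arrays. A further target on chromosome 1 carries human homologue names of several subunits, CHRNA3, CHRNA4 and CHRNA6, and was not counted for chrna3. It differed by -0.21 (SE 0.28, limma adjusted p = 0.889). It spans 17629066 to 17629398, close to the chrna6 target on the same chromosome (17599525 to 17627119). The gene it measures was not tested.

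The chrm2a gene encodes a muscarinic receptor of the M2 type, which couples to inhibitory G proteins and in mammals acts as an autoreceptor on cholinergic endings. Its target (OTTDART00000030745), listed under the old symbol chrm2, lies on chromosome 6 from 18301705 to 18443847. It read 11.47, 10.81 and 10.86 in lead-exposed brains, against 10.40, 10.58 and 10.45 in control brains. The groups did not overlap, and lead-exposed brain 1 stood apart above the other 5. The random-probe limit of the array was exceeded in 3 of 3 lead-exposed brains and 1 of 3 control brains. That limit differed by array: 10.73, 10.56 and 10.48 for lead-exposed brains, against 10.91, 10.76 and 10.41 for control brains. The count therefore sets brains against unlike limits. The means were 11.05 ± 0.37 in lead-exposed brains and 10.48 ± 0.09 in control brains (SD, n = 3 each). The difference of 0.57 (SE 0.20, 95% interval 0.095 to 1.05) gave an unadjusted p of 0.0252 and an adjusted p of 0.642 by limma, with an exact permutation p of 0.1. Without lead-exposed brain 1 it was 0.36, which is a change by more than 1.5 times.

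**Figure D2:**
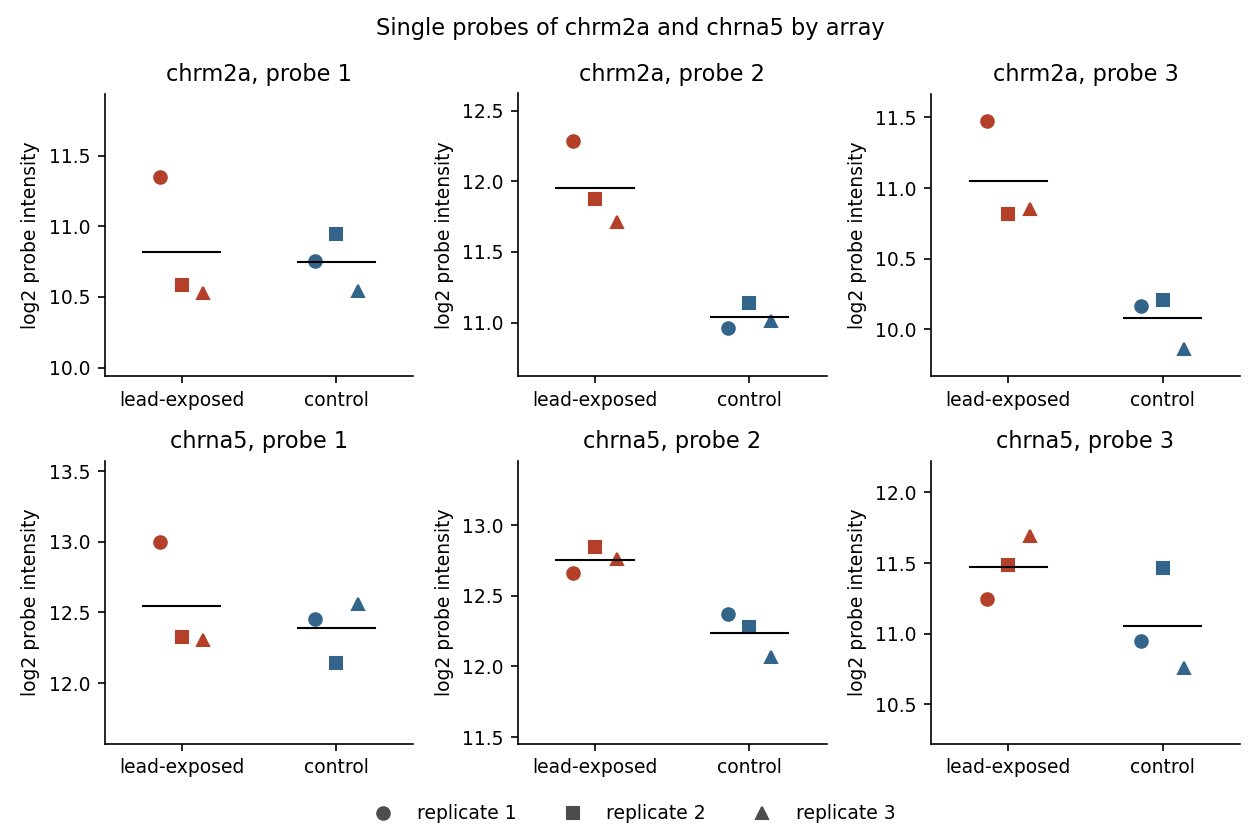
Log2 intensity of each single probe (vertical axes, each spanning the same number of log2 units) of chrm2a (top row) and chrna5 (bottom row) on the 3 lead-exposed and 3 control arrays, with group means as black lines. Probes 2 and 3 of chrm2a and probe 2 of chrna5 separate the groups, whereas chrm2a probe 1, chrna5 probe 1 and chrna5 probe 3 do not.

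Among the probes of the 6 targets, chrm2a showed the largest separation between groups. Its probe 2 read 12.28, 11.87 and 11.71 in lead-exposed brains, against 10.96, 11.14 and 11.01 in control brains, above the random-probe limit on 6 of 6 arrays. Probe 3 read 11.47, 10.81 and 10.86 in lead-exposed brains, against 10.17, 10.21 and 9.87 in control brains. Its lead-exposed readings equal the values of the target there, so probe and target are not separate evidence. Probes 2 and 3 differed by 0.92 (SE 0.19) and 0.97 (SE 0.22), with limma adjusted p of 0.256 and 0.270 over all single probes. Probe 2 was 1.89-fold higher. Probe 3 was above the random-probe limit in 3 lead-exposed and 0 control brains, and with control values raised to that limit it was at least 1.28-fold higher. Probe 1, above the limit on 5 arrays, read 11.35, 10.58 and 10.53 in lead-exposed brains, against 10.76, 10.94 and 10.55 in control brains. It thus overlapped between the groups, with a difference of 0.07 (SE 0.26). At least 2 of 3 probes higher without overlap, as for chrm2a, occurred in 3.7% of the 36632 targets with 3 probes.

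Muscarinic receptors of the M5 type couple to the Gq class of G proteins and in rodents are found on dopamine neurons of the midbrain. The chrm5a target, matched by its RefSeq record, lies on chromosome 17 of Zv7 from 2986067 to 2987540. It read 9.54, 9.34 and 9.81 in lead-exposed brains, against 8.76, 9.02 and 9.29 in control brains. The groups did not overlap, although the lowest lead-exposed and the highest control value differed by little, and no array exceeded the random-probe limit. The difference was 0.54 (SE 0.19, 95% interval 0.083 to 0.996), with an unadjusted p of 0.0269, an adjusted p of 0.645 by limma and an exact permutation p of 0.1. Among the 14397 targets above the limit on 0 arrays, 19.1% had groups that did not overlap. In 10% the lead-exposed brains were the higher group, and 6.21% were higher at unadjusted p under 0.05.

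The single chrm5a probe that did exceed the limit on all 6 arrays separated the groups less. That probe, the first, read 11.51, 11.32 and 11.54 in lead-exposed brains, against 11.45, 11.38 and 10.95 in control brains, with overlapping groups. Its difference was 0.20 (SE 0.18, limma adjusted p = 0.746 over all single probes). The dim probes 2 and 3 differed by 0.59 (SE 0.20, no overlap) and 0.22 (SE 0.29, overlap). In the deposited single-probe values, summarised over the 3 probes, the target's difference was 0.33 with an unadjusted p of 0.0837.

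A separate target carries the old symbol chrm5, which current tables list for both chrm5a and its paralogue chrm5b, and lies on chromosome 20 (33458608 to 33460114). By name it may measure either gene, but the chrm5a target lies on chromosome 17, so the annotation places them at different loci. Which gene it measures was not tested. Its intensity was 8.18, 8.10 and 8.38 in lead-exposed brains and 8.06, 8.14 and 8.47 in control brains, with overlapping groups and no array above the random-probe limit. The difference was 0.00053 (SE 0.16, limma adjusted p = 0.999).

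The acetylcholinesterase signal overlapped between the groups on every probe. The ache target (OTTDART00000025037) lies on chromosome 7 from 12069623 to 12080277. It read 14.56, 14.29 and 14.59 in lead-exposed brains, against 14.47, 14.36 and 14.67 in control brains. The groups overlapped fully: lead-exposed brain 2 was the lowest and control brain 3 the highest. The means were 14.48 ± 0.16 in lead-exposed brains and 14.50 ± 0.16 in control brains (SD, n = 3 each). The difference was -0.02 (SE 0.15, limma adjusted p = 0.984), and its 95% interval of -0.37 to 0.33 leaves room for a change in either direction. All 3 ache probes were above the random-probe limit on 6 of 6 arrays, with differences of -0.02, -0.09 and -0.07. Enzyme activity was not measured in these data.

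**Figure D3:**
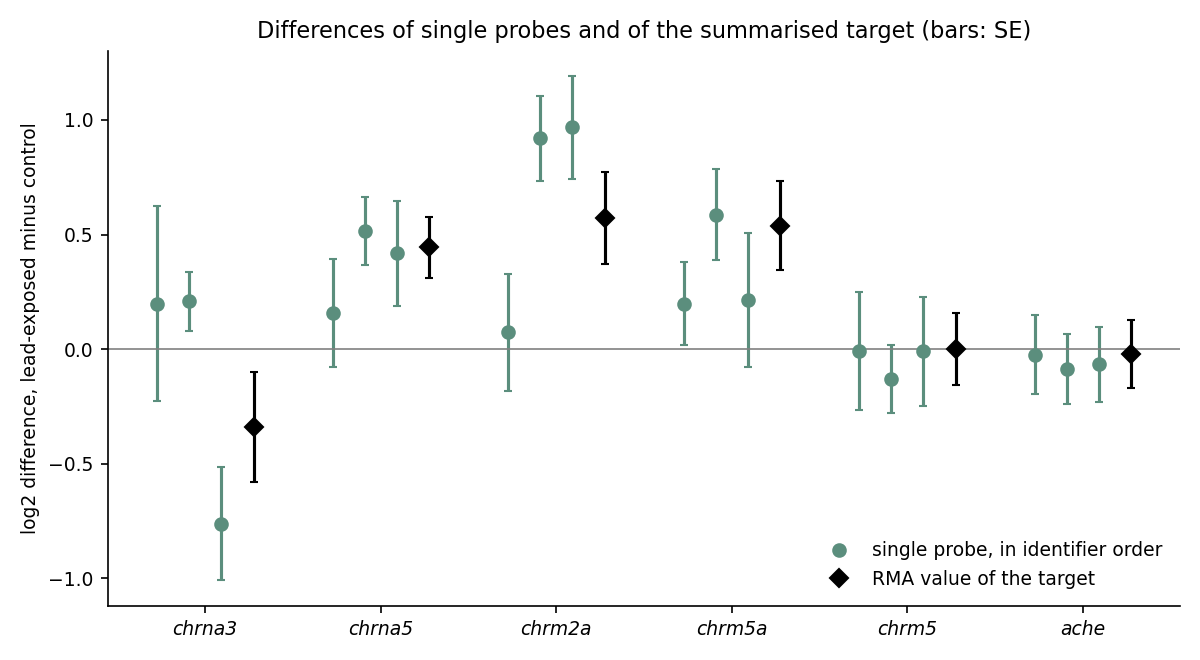
Log2 difference, lead-exposed minus control, of each of the 3 probes (circles, in identifier order) and of the RMA value of the target (diamonds) for the 6 targets, with limma's SE as bars. The probes lie close together for ache, on both sides of 0 for chrna3, and for chrm2a in a pair near 0.9 with the other probe at 0.07.

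Levels of cell type markers were read beside these differences. Measured markers are those with a target matched by zebrafish name. Of 14 listed neuron markers 8 were measured, all above the random-probe limit on all 6 arrays, with a mean difference of -0.02. Their mean level lay between 15.05 and 15.07 in lead-exposed brains and between 15.05 and 15.11 in control brains. Of 11 habenula markers 3 were measured (nptx2a, kctd12.1 and kctd12.2), with differences between 0.11 and 0.20 and overlapping groups. The habenula markers gpr151 and kiss1 had no target matched by zebrafish name, which does not show that the array lacks them. The 5 measured astroglial markers differed by -0.13 on average and the 6 measured myelin markers by 0.03. The part of cell composition in the receptor differences was not tested.

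Of 56 other listed genes of cholinergic signalling 16 had a target with a zebrafish name, and the brightest target of each was taken. No listed muscarinic receptor gene was among the 16, so they hold no other gene of the family of chrm2a and chrm5a. By limma 0 of the 16 passed at adjusted p under 0.05, and 1 of the 16, lypd6, passed at unadjusted p under 0.05 (against 7.19% of all targets). The 16 split into 8 higher and 8 lower in lead-exposed brains, with a median difference of 0.016, beside 18944 higher and 19545 lower of all targets. Counting all 22 targets of these genes gave 14 higher and 8 lower, with a median difference of 0.13.

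Among the other neuronal nicotinic subunits 3 were higher and 3 lower, and 0 of 6 had an unadjusted p under 0.05. The alpha 4 subunit gene chrna4b, part of the commonest nicotinic receptor of the mammalian brain, averaged 12.31 ± 0.38 in lead-exposed brains and 12.07 ± 0.15 in control brains (SD, n = 3 each). Its groups overlapped, with a difference of 0.24 (SE 0.21), and its other 3 targets differed by 0.15, 0.15 and 0.19. The chrna6 gene, whose subunit is found on dopamine neurons in mammals, differed by -0.38 (SE 0.31). The chrna7a gene, for a subunit that can form a channel by itself, differed by 0.12 (SE 0.32), and its second target by 0.32. Among these 3 genes every pair of groups overlapped.

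Muscle-type subunits form the receptor of the neuromuscular junction. The chrnd target was below the random-probe limit on all arrays and differed by -0.31 (SE 0.18). The chrne target read 12.29, 11.99 and 12.68 in lead-exposed brains, against 12.40, 12.62 and 10.03 in control brains, so that control brain 3 alone stood low. Its difference of 0.64 (SE 0.66) turned to -0.19 without that array. The other chrne target, also lowest in control brain 3, differed by 0.88 (SE 0.47) with overlapping groups. Of 11 measured skeletal muscle markers 8 were above the random-probe limit on 0 arrays and 1 was above it on all 6, with a mean difference of -0.04 over the list.

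Acetylcholine synthesis and loading were represented by chata, for the enzyme that makes the transmitter, and slc18a3b, for its vesicular transporter. The chata target read 11.12, 12.37 and 12.26 in lead-exposed brains, against 12.39, 11.97 and 12.34 in control brains. Lead-exposed brain 1 alone was low, and the difference of -0.32 (SE 0.34) became 0.08 without it. The slc18a3b target was below the random-probe limit on all arrays and differed by 0.08 (SE 0.32).

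Among anchors and modulators, lypd6 encodes a membrane-anchored protein of the toxin-like Ly6 family that binds nicotinic receptors in mammals. It read 10.81, 10.83 and 10.82 in lead-exposed brains, against 10.48, 10.68 and 10.17 in control brains, without overlap. The difference was 0.38 (SE 0.16, unadjusted p = 0.0475, limma adjusted p = 0.689), and 3 of 6 arrays exceeded the random-probe limit. The unadjusted p stayed under 0.05 in 1 of 6 fits that left out an array. Its relative lypd6b differed by 0.41 (SE 0.22), with overlapping groups and no array above the limit. No target was matched to chrnb4, chrnb2a, chrm2b, chrm5b, slc18a3a or slc5a7a by zebrafish name, and these were not analysed here. The chrm5 target above may measure chrm5b.

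**Figure D4:**
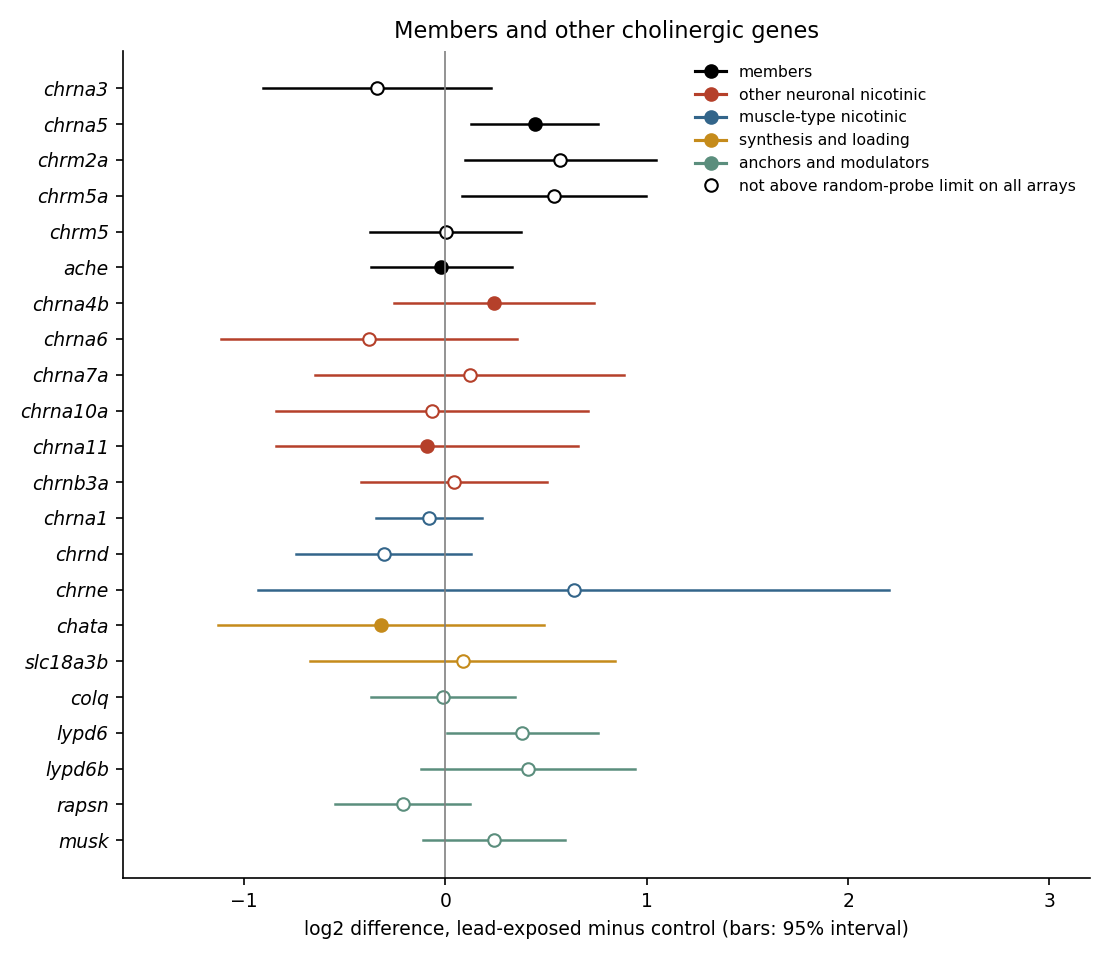
Log2 difference, lead-exposed minus control, with 95% intervals (horizontal axis) for the 6 receptor and esterase targets (black) and the brightest target of 16 other cholinergic genes (colours by role). Filled circles mark targets above the random-probe limit on all 6 arrays. The intervals of chrna5, chrm2a, chrm5a and lypd6 lie above 0 before correction for the number of targets, and the others span 0.

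The differences of chrna5, chrm2a and chrm5a kept their sign under every setting tried, whereas their size and unadjusted p varied. Since their groups did not overlap, fits on part of the arrays or with array weights had to keep the sign. The blocks and the other eBayes settings left the difference itself unchanged. The constant sign is therefore no separate support. For chrm2a the unadjusted p stayed under 0.05 in 4 of 6 fits that left out an array, and for chrm5a in 2 of 6. Scanner image names carried a common prefix in 4 arrays and not in brain 1 of either group, a possible batch. In the 4 arrays with the prefix, chrna5 differed by 0.51, chrm2a by 0.32 and chrm5a by 0.42. There 0 of the 6 targets had an unadjusted p under 0.05 by limma, beside 1203 of all 38489 targets. In the single pair without the prefix the differences were 0.32, 1.07 and 0.78, with no test.

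**Figure D5:**
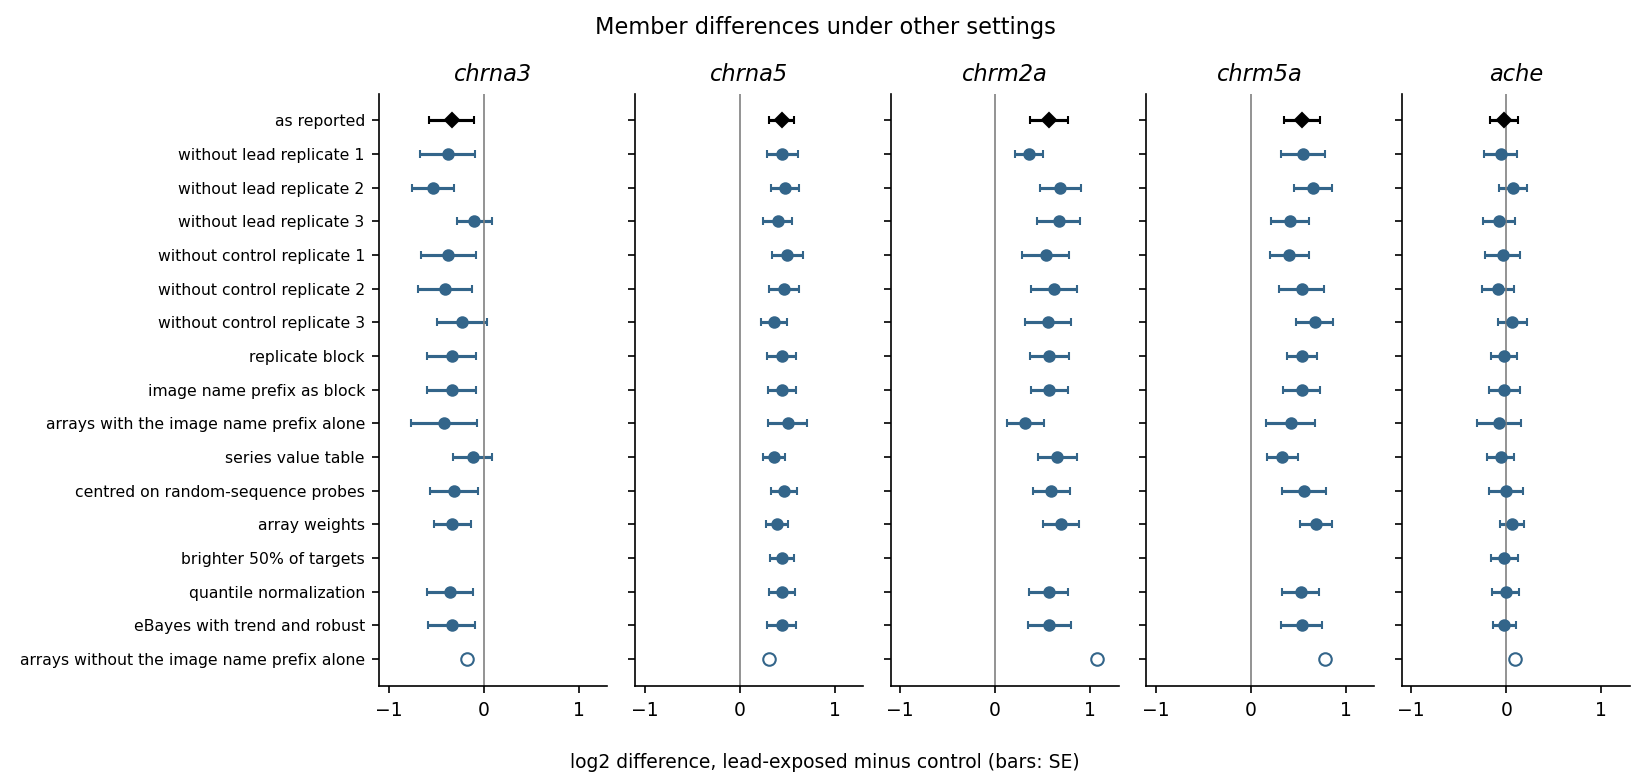
Log2 difference, lead-exposed minus control, with SE (horizontal axes) of 5 targets under each processing alternative (rows), with the reported value as a black diamond at the top. Open circles are a single pair of arrays and have no SE, and a missing point marks a target dimmer than the brighter 50%. The chrna5, chrm2a and chrm5a points stay right of 0, which groups without overlap fix in advance for most rows. The ache points lie on both sides of it.

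The genes whose levels followed each target most closely over the 6 arrays were found among 7767 named targets brighter than the random-probe limit. For chrna5 they were paqr3a (Pearson r = 0.969) and syt17 (r = 0.968), and 13 candidates exceeded 0.95. For chrm2a they were fnbp1l (r = 0.992) and sgsm3 (r = 0.988), and for chrm5a dock4b (r = 0.991) and ilrun (r = 0.977). For chrna3 they were tmco1 (r = 0.996) and snx5 (r = 0.986), for the chrm5 target rragcb (r = 0.995) and asap2a (r = 0.991), and for ache plekha5 (r = 0.994) and pleca (r = 0.991). The chrna3, chrm5a and chrm5 targets themselves did not exceed the random-probe limit on any array, so their r values describe dim signal. All these values are descriptions over 6 arrays that share scanning and normalization. With so few arrays high values occur widely, as the 42 candidates over 0.95 for ache show.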

How the data were processed

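Total RNA of single brains was labelled with Cy3 and hybridised to 1-colour arrays, per the labels' protocols. The deposited intensity of each target came from RMA, which the submitters' processing notes name without a version. RMA corrects background, equalises the arrays' distributions and summarises the probes of a target, which can hide probes that disagree, so the deposited single-probe intensity values of 113549 target probes and 27114 random-sequence probes were used too. The authors' deposited list of altered probes holds log2 ratios and p-values for 180 targets. It held 0 of the 6 receptor and esterase targets and 0 targets of the other listed cholinergic genes. Further targets with a receptor annotation were not looked up in it, and the list was not used further.

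The log2 of each intensity was fitted with lmFit and eBayes in limma 3.58.1 (R 4.3.3), 2-sided, without covariates, on 6 arrays. Adjustment was by Benjamini and Hochberg over 38489 targets, or over 113549 probes for single-probe values, with 1 control row left out. The script was tested on simulated data with larger changes than those of the receptor and esterase targets. That test does not show whether differences of their size would be found. Targets were named by current symbol, RefSeq accession or unambiguous older symbol. Chromosome positions of Ensembl and RefSeq records are those of Zv7, per the array annotation; those of OTTDART (Vega) records differ from Zv7 positions of the same genes where both exist, and their assembly is not named.

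The members and gene lists were chosen with earlier results of these data known. The rule for naming other cholinergic genes took 10 genes fixed by name and the 2 with the smallest unadjusted p in each role. Likeness was ranked by Pearson r, the highest 2 per target. Precision is limited by having 3 arrays in a group.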

Additional observations from a re-analysis of the deposited data

How the results depend on the processing

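No target passed an adjusted p of 0.05 under any alternative, by limma. At unadjusted p under 0.05, the 3 of 6 receptor and esterase targets became 1 to 3 when an array was left out (1 without control brain 1), 0 in the arrays with the image-name prefix alone and 1 among the brighter 50% of targets, where only chrna5 and ache remain. Of the other cholinergic genes 1 passed as reported and 0 to 2 with an array left out. It was 0 with the replicate block, the prefix as block, the prefixed arrays alone, the single-probe table, the brighter 50%, quantile normalization or eBayes with trend and robust. It was 2 when all 22 targets of these genes were counted. It was 4 among all 27 targets with a receptor annotation other than the 6, a set added after seeing the data. The share of all targets at this unadjusted p was 7.19%. Over all targets the 2768 became 1813 (without control brain 1) to 5045 (without lead-exposed brain 2), 1203 in the prefixed arrays, 5934 with array weights and 741 among the brighter 50%.

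The replicate block left 3 of the 6 targets and 3009 of all targets at unadjusted p under 0.05; deviations of same-numbered arrays correlated at -0.148, 0.142 and 0.263, so the numbers were not taken to pair fish, and not every array correlated best with its own number. The block changed no call of a receptor or esterase target.

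Several differences changed sign. For chrm5 the range with an array left out was -0.080 to 0.12, and it was -0.059 in the prefixed arrays, -0.049 in the single-probe table, -0.0083 after quantile normalization and -0.0092, -0.13 and -0.0091 for its probes. For ache the range was -0.089 to 0.072, with 0.00040 after centring on random probes, 0.062 with array weights and 0.091 in the pair without the prefix. For chrna3 probes 1 and 2 gave 0.20 and 0.21. The chromosome 1 target with homologue names of several subunits ranged from -0.37 to 0.077, and chrna7a from -0.13 to 0.51 (-0.033 in the prefixed arrays). The range was -0.19 to 1.11 for chrne and -0.55 to 0.082 for chata (0.16 in the prefixed arrays). For slc18a3b it was -0.30 to 0.32 (-0.13 in the single-probe table, -0.18 with array weights). The cause was not tested. Scaling moved the median of all targets by less than 0.1.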

Other observations

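Apart from the 6 targets and those matched by name to a listed gene, 13 targets carried an acetylcholine receptor annotation through a homologue or a predicted gene. This set was chosen after the data were seen. Some of its targets share a locus with each other or with a listed gene, so they are not 13 separate genes. Of the 13 targets, 6 were higher and 7 lower in lead-exposed brains, with a median difference of -0.09. By limma 0 passed at adjusted p under 0.05, and 4 of 13 had an unadjusted p under 0.05 (2 higher and 2 lower), against 7.19% of all targets. The target with the lowest p of the set, annotated as a copy of CHRNA4, read 9.59, 9.03 and 9.12 in lead-exposed brains, against 9.81, 9.97 and 10.01 in control brains. Its difference was -0.68 (SE 0.18, limma adjusted p = 0.585), with no overlap and no array above the random-probe limit. A target on chromosome 14 with the homologue name CHRNB3, for an accessory nicotinic beta subunit, read 11.35, 11.12 and 11.33 in lead-exposed brains, against 10.50, 11.01 and 10.65 in control brains. It exceeded the limit on 5 arrays and did not overlap, with a difference of 0.55 (SE 0.17, limma adjusted p = 0.610). Another target with the homologue name CHRNB3, on chromosome 1, exceeded the limit on 6 arrays. It averaged 13.17 in lead-exposed and 13.30 in control brains, a difference of -0.13 (SE 0.13) with overlapping groups. The target named CHRM3, for a muscarinic receptor, differed by -0.10 (SE 0.18), with overlapping groups and no array above the limit.

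A target with the homologue name CHRNG (chromosome 5, 29960667 to 29971648 in Zv7) overlaps the brightest chrne target (29960668 to 29970716) and, like it, was low in control brain 3. It read 10.94, 11.19 and 11.57 in lead-exposed brains, against 10.76, 10.65 and 9.22 in control brains, without overlap. Its difference was 1.02 (SE 0.42, limma adjusted p = 0.684). A second CHRNG target, at 29971210 to 29971651, differed by 0.48 (SE 0.45).

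Chosen after its values were seen, a second target of colq, the collagen that anchors acetylcholinesterase at the neuromuscular junction, read 8.36, 8.35 and 8.63 in lead-exposed brains, against 8.08, 7.91 and 8.01 in control brains, with a difference of 0.45 (SE 0.13, limma adjusted p = 0.607). The brighter colq target differed by -0.01 (SE 0.15), and neither exceeded the random-probe limit on any array.

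The 5 measured haemoglobin and erythrocyte markers, centred on their means, stood at 0.40, 0.36 and -0.56 in lead-exposed brains 1, 2 and 3, against -0.51, -0.41 and 0.73 in control brains 1, 2 and 3. They varied within both groups.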
